A study of Homo sapiens with 6 samples.

Results

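The genes described here are 8 tumour suppressors and neighbours that are recurrently lost or mutated in malignant mesothelioma, chosen by symbol from the 58735 genes listed in the deposited tables. *CDKN2A*, *CDKN2B*, the antisense RNA *CDKN2B-AS1* and *MTAP* lie together on chromosome band 9p21. *BAP1*, *SETD2* and *PBRM1* lie on the short arm of chromosome 3, and *SETDB1* lies on chromosome 1. All 8 symbols were found in the count table and in the FPKM table. RNA was sequenced from H2452, an established human pleural mesothelioma cell line that the study treats as *NF2* wild-type, in 3 libraries with a scrambled guide RNA (sgCtrl) and 3 libraries with an *NF2*-targeting guide RNA (sg*NF2*-1). Both groups received Cas9 and their guide by lentivirus and were sorted for mCherry, so each is a sorted population carrying 1 guide, and no single-cell cloning is described. All cells were grown in RPMI-1640 with fetal bovine serum and antibiotics, and the total counts per library ranged from 14782423 to 17416463. The study's statistics speak of biological replicates in general, and the labels do not say whether these libraries came from separate cultures. If they did not, p-values measure only technical spread. The targeted gene *NF2* fell from 71.4 ± 3.36 (SD, n = 3) to 44.2 ± 6.77 CPM (SD, n = 3), where CPM is the count scaled to a common library size by TMM.

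The 9p21 genes act on several growth controls. *CDKN2A* encodes INK4A, an inhibitor of the cyclin D kinases CDK4 and CDK6, and, from another first exon, ARF, an inhibitor of the ubiquitin ligase MDM2. *CDKN2B* encodes a further inhibitor of the INK4 family, *CDKN2B-AS1* (also called ANRIL) is a long noncoding RNA, and *MTAP* encodes the enzyme that recycles methylthioadenosine, a by-product of polyamine synthesis that inhibits the methyltransferase PRMT5. Homozygous deletion of 9p21 is among the most frequent lesions of mesothelioma. The other 4 genes act on chromatin: BAP1 removes ubiquitin from histone H2A, SETD2 trimethylates H3K36, SETDB1 methylates H3K9 and PBRM1 is the polybromo subunit of the PBAF chromatin remodelling complex.

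Promoter sequences of the protein-coding 9p21 genes are shown as the start sites from which no RNA was counted in these libraries. They were taken from RefSeq on GRCh38.p14, which had an entry for 7 of the 8 genes, and run from 250 bases before to 50 bases after a start site, 5′ to 3′ on the gene's strand, with each CG dinucleotide in capitals. The 2 *CDKN2A* entries belong to its separate first exons, the upstream one to ARF (chr9:21995275-21995574, minus strand) and the downstream one to INK4A (chr9:21974808-21975107, minus strand). The *CDKN2B* entry is chr9:22009256-22009555 on the minus strand and the *MTAP* entry is chr9:21802386-21802685 on the plus strand.
CDKN2A, ARF start: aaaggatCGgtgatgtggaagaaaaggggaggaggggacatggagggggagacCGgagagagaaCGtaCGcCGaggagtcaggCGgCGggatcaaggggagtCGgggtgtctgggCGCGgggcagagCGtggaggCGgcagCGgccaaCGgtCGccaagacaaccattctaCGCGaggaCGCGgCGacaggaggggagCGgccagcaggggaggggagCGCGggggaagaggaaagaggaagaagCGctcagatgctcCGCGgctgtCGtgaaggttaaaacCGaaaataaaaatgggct
CDKN2A, INK4A start: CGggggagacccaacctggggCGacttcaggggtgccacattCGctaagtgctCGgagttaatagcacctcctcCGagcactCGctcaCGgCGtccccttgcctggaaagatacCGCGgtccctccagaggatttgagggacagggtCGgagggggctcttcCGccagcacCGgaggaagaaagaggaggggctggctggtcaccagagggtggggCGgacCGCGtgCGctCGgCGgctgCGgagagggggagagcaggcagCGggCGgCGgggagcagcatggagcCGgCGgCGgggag
CDKN2B: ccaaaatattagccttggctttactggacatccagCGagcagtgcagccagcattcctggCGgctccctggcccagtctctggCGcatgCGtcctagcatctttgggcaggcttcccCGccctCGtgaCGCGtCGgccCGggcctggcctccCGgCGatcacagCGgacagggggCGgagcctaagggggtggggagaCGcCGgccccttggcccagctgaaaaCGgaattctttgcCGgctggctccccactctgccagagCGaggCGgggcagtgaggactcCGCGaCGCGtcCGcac
MTAP: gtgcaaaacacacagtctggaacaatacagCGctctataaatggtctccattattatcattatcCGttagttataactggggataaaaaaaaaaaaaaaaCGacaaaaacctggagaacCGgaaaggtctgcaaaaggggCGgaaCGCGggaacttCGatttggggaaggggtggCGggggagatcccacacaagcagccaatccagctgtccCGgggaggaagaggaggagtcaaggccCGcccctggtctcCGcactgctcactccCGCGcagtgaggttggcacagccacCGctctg

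The *CDKN2A* windows held 28 and 26 CG dinucleotides, the *CDKN2B* window 25, the *MTAP* window 15 and that of *CDKN2B-AS1* 36. The median over the 35116 promoters of the table was 14. The windows of *CDKN2A*, *CDKN2B* and *CDKN2B-AS1* were thus above the median, and that of *MTAP* was close to it, with 51.1% of promoters holding fewer. A set of 3 short motifs was searched on both strands in the same windows. GGAATG, the core of the TEAD motif, was present in 14.0% of all promoters and, among the 9p21 entries, in that of *CDKN2B*. TATAAA was present in 11.5% of all promoters and in that of *MTAP*, and CCAAT in 34.6% of all promoters and, among the 9p21 entries, in that of *MTAP*. A match describes the letters of the window and does not show a bound site.

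The 9p21 genes had no reads. *CDKN2A* (ENSG00000147889, chromosome 9, 21967753 to 21995301, GRCh38) had 0 counts in each of the 3 sgCtrl and the 3 sg*NF2*-1 libraries. *CDKN2B* (ENSG00000147883, 22002903 to 22009363) had 0 counts in all 6 libraries as well. The same was true of *CDKN2B-AS1* (ENSG00000240498, 21994778 to 22121097, on the opposite strand) and of *MTAP* (ENSG00000099810, 21802543 to 21937651). The deposited FPKM values, fragments scaled by exon length and library depth, were also 0 throughout for these 4 genes. No fold change between sgCtrl and sg*NF2*-1 can be given for them, since both groups are at the floor.

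The depth sets how low these levels could be. Taking 3 counts as the highest number that a count of 0 allows, the limit for *MTAP* was 0.0109 to 0.0135 FPKM per library, and 0.00205 FPKM over the 6 libraries together. For *CDKN2A* the limit was 0.0369 to 0.0456 FPKM per library, for *CDKN2B* 0.0394 to 0.0487 and for *CDKN2B-AS1* 0.0199 to 0.0246. These limits cover counting error only. At the median level of the tested genes, 3.91 FPKM, *MTAP* would have had 868 to 1072 counts per library and *CDKN2A* 257 to 317. An absence of reads was common over the whole table, at 51.7% of all listed genes and 19.2% of the protein-coding ones. It was less common among genes with much annotated exon, at 7.97% of the 10508 protein-coding genes with at least 4000 bases. This length pools the exons of all annotated transcripts of a gene, and a single transcript can be shorter. The 3 protein-coding 9p21 genes exceed it, and the cut lies just under the shortest of them, *CDKN2B*, with 4058 bases.

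Most of the annotated sequence of these genes is theirs alone. Of the 14617 exonic bases of *MTAP*, 13216 belong to no other gene in GENCODE release 29, and all 4058 of *CDKN2B* do not overlap another exon. *CDKN2A* shares 341 of its 4329 exonic bases with *CDKN2B-AS1*, which runs in the other direction. Of the windows of 150 bases, the read length, in the annotated transcripts, 100% of those of *CDKN2B*, 96.0% of those of *CDKN2A*, 94.9% of those of *CDKN2B-AS1* and 94.1% of those of *MTAP* occur in no other gene's transcripts. *CDKN2A* and *CDKN2B*, related genes, shared no such window.

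The zeros extended over a stretch of chromosome 9. Going out from the 4 genes, which span 319 kb, the nearest genes with at least 10 counts in every library were *KLHL9* on the telomeric side, 467 kb from *MTAP*, and *TUSC1* on the centromeric side. *TUSC1* lies beyond the 3 Mb window set for the neighbourhood, and was chosen after its values were seen. The interval between *KLHL9* and *TUSC1* measures 4.34 Mb and holds 49 listed genes, of which 46 had 0 counts in all 6 libraries. Of its 13 protein-coding genes, 11 were at 0. The 3 listed genes with any read were *IFNA6*, with 2 counts in 1 library, *ELAVL2*, a neuronal RNA-binding protein gene, with 0 to 8 counts, and the processed pseudogene *CLIC4P1*, with 2 to 12.

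Within this interval, the nearest genes with any read were *IFNA6* and *CLIC4P1*, which lie 1.40 Mb apart. Between them lay 32 listed genes, all at 0, with 60.0 kb of exon. A further 2 noncoding genes at 0, *LINC01239* and AL391117.1, begin there and extend past *CLIC4P1*. The 10 protein-coding genes of this stretch were, from the telomeric side, *IFNA13*, *IFNA2*, *IFNA8*, *IFNA1*, *IFNE*, *MTAP*, the read-through gene AL359922.1, *CDKN2A*, *CDKN2B* and *DMRTA1*. The other protein-coding gene at 0 before *TUSC1* was *IZUMO3*. The interferon alpha genes are induced in infection and are silent in most unstimulated cells. *MIR31HG*, the host transcript of a microRNA between the interferon genes and *MTAP*, was also at 0. Such runs were not unique to the locus: of 2135 runs of protein-coding genes at 0 along the genome, 32 held 10 or more genes, and the longest held 49. Whether the 9p21 genes are deleted in these cells or present and not transcribed cannot be told apart from read counts. DNA was not analysed here.

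*KLHL9* and *TUSC1*, at the ends of the interval, were expressed in both groups. *KLHL9*, an adaptor of a CUL3 ubiquitin ligase, had 440, 464 and 525 counts in sgCtrl and 537, 436 and 393 in sg*NF2*-1. Its groups overlapped, and its log2 fold change was -0.07 (95% interval -0.30 to 0.16, adjusted p = 0.67, edgeR). *TUSC1* had 281, 268 and 222 counts in sgCtrl and 268, 255 and 277 in sg*NF2*-1, again overlapping, and its change was 0.07 on the log2 scale (standard error 0.13, adjusted p = 0.74). Both directions turned when single libraries were left out. Within 3 Mb, 10 of 106 listed genes passed the expression filter, all on the telomeric side. Of these, 1 rose and 2 fell in sg*NF2*-1, where 17.7% of all tested genes rose and 16.6% fell. *RPS6*, a ribosomal protein gene, rose from 202 to 259 FPKM (log2 fold change 0.37, adjusted p = 0.0021). *DENND4C*, a Rab exchange factor, fell from 3.35 to 2.39 FPKM (log2 fold change -0.48, adjusted p = 0.0038). *HACD4*, a fatty acid elongation enzyme, fell by 0.41 on the log2 scale (adjusted p = 0.024), a call that 4 of 12 alternatives lost, with an adjusted p of 0.15 without sgCtrl replicate 2. *FOCAD*, which lies just telomeric to *HACD4*, had a log2 fold change of -0.15 (adjusted p = 0.34).

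The 4 chromatin genes had reads in every library, and none passed the test between sgCtrl and sg*NF2*-1. By edgeR's quasi-likelihood test, 0 of the 4 had an adjusted p under 0.05 in either direction, against 34.3% of the 14179 tested genes (17.7% higher and 16.6% lower). None had an unadjusted p under 0.05 either, the lowest being 0.11, and DESeq2 on the counts and limma on the FPKM values likewise called 0 of 4, the latter against 28.4% of the genes tested on that scale. The thresholds of the study, an unadjusted p under 0.05 and a log2 fold change past 0.5, were applied to the edgeR values. The study used them with DESeq2. With edgeR they also left 0 of the 4, where 9.22% of the tested genes were higher and 10.8% lower. In all 4 genes the groups overlapped, whereas 45.3% of all tested genes had groups that did not.

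*BAP1* (ENSG00000163930, chromosome 3, 52401013 to 52410350) was the most abundant member. It had 82.2, 88.5 and 95.9 CPM in sgCtrl and 87.7, 86.2 and 95.9 CPM in sg*NF2*-1. The spans of the groups coincided almost entirely, with means of 88.8 ± 6.87 and 89.9 ± 5.24 CPM (SD, n = 3 each). The fitted change was 0.02 on the log2 scale (standard error 0.09, adjusted p = 0.90, exact permutation p = 0.90), and its 95% interval of -0.16 to 0.20 corresponds to 0.894 to 1.15 times the control level. The sign turned negative on leaving out sgCtrl replicate 1 or sg*NF2*-1 replicate 3.

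*SETD2* (ENSG00000181555, chromosome 3, 47016429 to 47163967) had 35.1, 36.7 and 31.6 CPM in sgCtrl and 31.4, 33.9 and 25.3 CPM in sg*NF2*-1. The lowest value was that of sg*NF2*-1 replicate 3, replicate 1 lay just under the control span and replicate 2 within it. The means were 34.5 ± 2.64 and 30.2 ± 4.43 CPM (SD, n = 3 each), a difference of -0.19 on the log2 scale (standard error 0.11, adjusted p = 0.21, exact permutation p = 0.20). The interval of -0.42 to 0.05 leaves room for a fall to 0.745 times the control level.

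*PBRM1* (ENSG00000163939, chromosome 3, 52545352 to 52685917) lies 135 kb from *BAP1* and had 18.5, 20.7 and 19.0 CPM in sgCtrl and 18.7, 18.3 and 15.7 CPM in sg*NF2*-1. The lowest library was again sg*NF2*-1 replicate 3, and the means were 19.4 ± 1.18 and 17.5 ± 1.64 CPM (SD, n = 3 each). The difference was -0.14 on the log2 scale (standard error 0.12, adjusted p = 0.39, exact permutation p = 0.20), with an interval of -0.39 to 0.11. *PBRM1* shares 146 of its 9654 exonic bases with *SMIM4* on the other strand.

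*SETDB1* (ENSG00000143379, chromosome 1, 150926263 to 150964744) had 18.2, 15.7 and 14.9 CPM in sgCtrl and 17.6, 17.9 and 16.3 CPM in sg*NF2*-1. The highest and the lowest value were both in sgCtrl, with means of 16.3 ± 1.73 and 17.2 ± 0.841 CPM (SD, n = 3 each). The fitted change was 0.08 on the log2 scale (standard error 0.12, adjusted p = 0.64, exact permutation p = 0.50), with an interval of -0.17 to 0.34, or 0.887 to 1.27 times the control level. Of its 7093 exonic bases, 948 overlap *CERS2* on the other strand, a gene at 19.9 FPKM, and since strand use in counting is not given in the sources used here, reads in the overlap are uncertain.

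**Figure D1:**
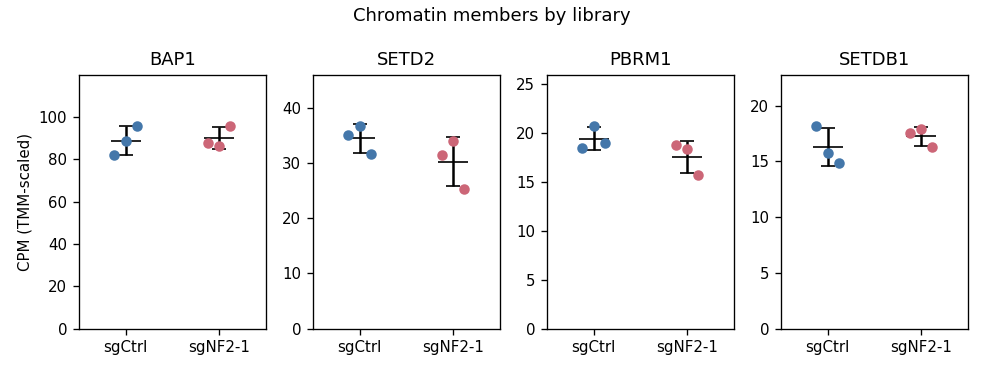
TMM-scaled CPM of *BAP1*, *SETD2*, *PBRM1* and *SETDB1* in each library (points, replicates 1 to 3 from left to right), with the mean (bar) and SD (whiskers) of 3 libraries per group and each axis starting at 0. The sgCtrl and sg*NF2*-1 points overlap for every gene, and *BAP1* stands at 82.2 to 95.9 CPM in sgCtrl and 86.2 to 95.9 CPM in sg*NF2*-1.

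**Figure D2:**
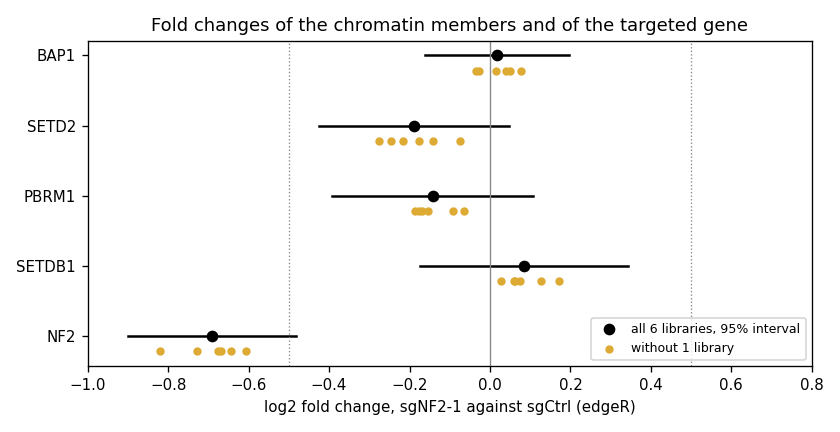
Log2 fold change of sg*NF2*-1 against sgCtrl by edgeR for the 4 chromatin genes and the targeted gene (black points, 95% intervals), with the values after leaving out each library in turn (yellow points) and dotted lines at -0.5 and 0.5. The interval of *BAP1*, from -0.16 to 0.20, includes 0 as do those of the other 3 chromatin genes, whereas that of *NF2* lies between -0.90 and -0.48.

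On the FPKM scale, which divides by the annotated exon length of each gene, the order was the same in all 6 libraries. *BAP1* was highest, at 15.4 to 17.9 FPKM, above 81.2% of the tested genes. *SETD2* followed at 2.35 to 3.45 FPKM, then *SETDB1* at 1.99 to 2.43 and *PBRM1* at 1.52 to 2.04, and these 3 were above 44.3%, 38.1% and 33.9% of the tested genes. The level of *BAP1* was 4.68 to 7.58 times that of *SETD2* within a library. The step from *SETD2* to *SETDB1* was a factor of 1.09 to 1.64 and that from *SETDB1* to *PBRM1* a factor of 1.03 to 1.42, so that these neighbours in the order were close, and their ranges over the libraries overlapped. The place of *SETDB1* is also uncertain because its reads may include some from the overlap with *CERS2*. *SETD2* and *PBRM1* did not overlap, with ratios of 1.54 to 1.82. These are RNA levels, and neither protein nor sequence variants of these genes were analysed here.

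The tested genes around each chromatin member were counted to set its value beside its region. Among the 20 tested genes nearest to *BAP1*, 4 rose and 1 fell, with a median log2 fold change of -0.02. For *PBRM1* the numbers were 3 and 1 with a median of 0.01, for *SETDB1* 3 and 2 with -0.06, and for *SETD2* 5 and 2 with 0.12. Over all tested genes 17.7% rose and 16.6% fell, with a median of -0.0025. The neighbourhoods of *BAP1* and *PBRM1* on chromosome 3 share genes, whereas *SETD2* lies 5.24 Mb away.

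The genes whose log2 CPM followed each member most closely over the 6 libraries, among 13137 genes, are given as a description. For *BAP1* these were *MYL12B* (r = 0.989), *HSD11B1L* (r = 0.987) and *NDUFS3* (r = 0.976). For *SETD2* they were *NCBP2* (r = 0.994), *NUP153* (r = 0.993) and *DPY19L3* (r = 0.986). *PBRM1* was followed by *PARP14* (r = 0.997), *AIDA* (r = 0.989) and *SPAG9* (r = 0.987), and *SETDB1* by *RCAN3* (r = 0.990), *EEF2K* (r = 0.984) and *FOXF1* (r = 0.978). The points are 6 libraries of 1 cell line in 2 groups, and values this high can be reached by many genes over so few points.

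Over all lists of partners, 107 of 110 listed genes passed the expression filter, of which 21 rose and 22 fell in sg*NF2*-1. This share of 40.2% was near the 34.3% over all tested genes, and the difference was not tested. The counts of each list below stand beside 17.7% higher and 16.6% lower over all tested genes. No list was tested as a set. The thresholds of the study, applied to edgeR values, left 6 partner genes in each direction, so that most of the called changes were small. The lists were composed with earlier results of these data known.

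Among the CDK inhibitors that remain where *CDKN2A* and *CDKN2B* have no reads, 1 of 5 tested genes rose and 2 fell. *CDKN2C*, the INK4 family gene for the inhibitor called INK4C, had 1003, 940 and 949 counts in sgCtrl and 516, 404 and 409 in sg*NF2*-1. All sg*NF2*-1 libraries lay far below all sgCtrl libraries, and the means were 61.1 ± 3.40 and 28.1 ± 1.67 CPM (SD, n = 3 each). This fall was -1.12 on the log2 scale (standard error 0.10, edgeR adjusted p = 2.4e-09). *CDKN2D*, the remaining INK4 gene, had 220, 220 and 238 counts in sgCtrl and 242, 136 and 161 in sg*NF2*-1. Its groups overlapped and its log2 fold change of -0.34 did not pass the test (adjusted p = 0.086), though without sg*NF2*-1 replicate 1 the adjusted p was 0.025. *CDKN1B*, which encodes KIP1, fell by 0.24 on the log2 scale (adjusted p = 0.032), and *CDKN1A*, which encodes CIP1, rose by 0.34 (adjusted p = 0.049). Both calls were near the threshold and were lost in 7 and 8 of 12 alternatives, with adjusted p-values of up to 0.13 and 0.23.

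Of the kinases, cyclins, pocket proteins and E2F factors that INK4A acts through, 2 of 12 tested genes rose and 4 fell, with a median log2 fold change of -0.14. *CDK6* had 377, 470 and 389 counts in sgCtrl and 790, 740 and 576 in sg*NF2*-1, with no overlap, and rose from 26.1 ± 2.39 to 44.4 ± 3.77 CPM (SD, n = 3 each, log2 fold change 0.77, adjusted p = 3.7e-06). *CDK4*, the other kinase inhibited by INK4A, stood at 126 ± 9.06 and 139 ± 16.2 CPM, and its log2 fold change of 0.14 did not pass the test (95% interval -0.05 to 0.33, adjusted p = 0.24). *E2F2*, an activating E2F, fell from 10.4 to 6.46 CPM (log2 fold change -0.69, adjusted p = 0.0032). *E2F5*, a repressive E2F, rose by 0.68 on the log2 scale from 3.06 to 4.90 CPM (adjusted p = 0.041), but its groups overlapped and 5 of 12 alternatives lost the call, with an adjusted p of 0.20 without sgCtrl replicate 1. The other members called were *E2F1*, *CCND3* and *RBL2*, all lower and named after their values were seen. *CCND3*, a D-type cyclin, fell from 76.8 ± 5.40 to 48.3 ± 1.69 CPM (log2 fold change -0.67, adjusted p = 2.2e-06). *CCND1*, the most abundant D-type cyclin gene at 452 and 411 CPM, had a log2 fold change of -0.14 (adjusted p = 0.19), and *RB1*, the retinoblastoma gene, one of -0.20 (adjusted p = 0.11).

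On the ARF side, 1 of 6 tested genes rose and 0 fell by edgeR. *NPM1*, which encodes the nucleolar protein that binds ARF, rose by 0.27 on the log2 scale (adjusted p = 0.022), and 3 of 12 alternatives lost the call, with an adjusted p of 0.18 without sgCtrl replicate 2. *MDM2* stood at 32.4 ± 1.58 and 29.8 ± 3.24 CPM (log2 fold change -0.12, adjusted p = 0.40).

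The genes around *MTAP* in metabolism, which make polyamines, salvage methionine or form the PRMT5 complexes, included 5 that rose and 1 that fell of 15 tested, with a median log2 fold change of 0.15. *PRMT5*, whose enzyme is sensitive to methylthioadenosine, had 671, 735 and 691 counts in sgCtrl and 1187, 1025 and 978 in sg*NF2*-1. The groups were well separated, with means of 44.3 ± 1.54 and 67.5 ± 1.13 CPM (SD, n = 3 each). This rise was 0.61 on the log2 scale (standard error 0.09, adjusted p = 6.8e-06). *ODC1*, which encodes ornithine decarboxylase, the enzyme that starts the making of polyamines, had 6890, 7154 and 6899 counts in sgCtrl and 12757, 11273 and 10635 in sg*NF2*-1. It rose by 0.73 on the log2 scale (adjusted p = 9.9e-08), again with no overlap. *RIOK1*, an adaptor of PRMT5, rose from 10.6 to 15.1 CPM (log2 fold change 0.50, adjusted p = 0.0063), and without sgCtrl replicate 2 its adjusted p was 0.053. *MAT2A*, which makes the methyl donor of PRMT5, rose from 272 ± 8.90 to 331 ± 13.0 CPM (log2 fold change 0.29, adjusted p = 0.0062). The fifth gene that rose was the spermidine synthase gene *SRM* (log2 fold change 0.45), and the gene that fell was *ADI1* of methionine salvage (log2 fold change -0.39), both named after their values were seen.

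Among the partners of the chromatin genes, log2 fold changes ran from -0.56 to 0.50. Of 9 tested partners of BAP1, *FOXK2*, a forkhead factor that recruits BAP1, rose from 53.5 to 71.6 CPM (log2 fold change 0.42, adjusted p = 0.00054) and *MBD5*, a methyl-CpG-binding domain gene, fell by 0.45 on the log2 scale (adjusted p = 0.0082, but 0.056 without sg*NF2*-1 replicate 3). *ASXL3*, a paralogue of the BAP1 cofactors *ASXL1* and *ASXL2*, had 0 counts in all libraries. Of 23 SWI/SNF subunits, among which PBRM1 acts, 9 rose and 3 fell, with a median log2 fold change of 0.13. Over all tested genes 17.7% rose and 16.6% fell. *SMARCA2*, one of the ATPase subunits, fell from 44.8 to 32.5 CPM (log2 fold change -0.46, adjusted p = 0.00066). Of the accessory subunits, *SMARCD3* fell by 0.56 and *BCL7A* rose by 0.50 on the log2 scale (adjusted p = 0.021 each), and each call was lost in 4 of 12 alternatives, with adjusted p-values of up to 0.12 and 0.14. *ARID2*, which with PBRM1 defines PBAF, also fell, by 0.42 (edgeR adjusted p = 0.018), but its groups overlapped. On the same list, *PHF10* rose by 0.30 on the log2 scale (edgeR adjusted p = 0.0085). *BRD7* had a log2 fold change of 0.04 (edgeR adjusted p = 0.78). *ARID2*, *PHF10* and *BRD7* were named after their values were seen.

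Of 12 tested genes for H3K36 methylation and its removal, the field of SETD2, 0 rose and 1 fell by edgeR, with a median log2 fold change of -0.13. The gene that fell was *KDM4B*, a demethylase of H3K9 and H3K36 (log2 fold change -0.31, adjusted p = 0.011), whose call was lost in 2 of 12 alternatives, with an adjusted p of 0.068 without sgCtrl replicate 2. Of 15 genes for H3K9 methylation and HUSH silencing, the field of SETDB1, 1 rose and 6 fell. *TRIM28*, the corepressor that recruits SETDB1, rose from 250 ± 13.5 to 343 ± 24.6 CPM (log2 fold change 0.46, adjusted p = 0.00011). *ATF7IP*, the partner that stabilises SETDB1, fell from 94.5 ± 11.3 to 72.9 ± 5.79 CPM (log2 fold change -0.37, adjusted p = 0.0032), and *CBX3*, an HP1 gene, fell by 0.37 (adjusted p = 0.0011). The median of the list was 0.0048.

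Of 11 further genes that are recurrently altered in mesothelioma, 1 rose and 4 fell, with the targeted *NF2* among the latter (log2 fold change -0.69, adjusted p = 7.9e-06). *DDX51*, an RNA helicase gene, rose by 0.64 on the log2 scale (adjusted p = 8.3e-06), and *SF3B1*, a splicing factor gene, fell by 0.36 (adjusted p = 0.0012).

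The labelled cell type was checked by marker genes. Of 12 mesothelial markers, 7 were at 1 FPKM or more in every library, among them *MSLN*, *CALB2* and *PDPN*, whereas *KRT5*, *HP* and *LRRN4* stayed under 1 FPKM. Of the 9 that passed the expression filter, 3 rose in sg*NF2*-1 (*MSLN*, *BNC1* and *KRT18*) and 3 fell (*WT1*, *PDPN* and *KRT19*). *MSLN* stood at 12.3 to 14.4 FPKM in sgCtrl and 18.9 to 23.7 in sg*NF2*-1, and *WT1* at 1.94 to 2.57 and 0.979 to 1.31. The immune marker *PTPRC*, the fibroblast markers *LUM* and *DCN* and the lung markers *NKX2-1* and *SFTPC* had 0 counts in all libraries. *PDGFRB*, 1 of 5 fibroblast markers, stood at 8.89 to 10.3 FPKM in sgCtrl and 5.63 to 5.94 in sg*NF2*-1, and fell. The remaining markers of other cell types stayed under 1 FPKM. Of these, *COL1A1* fell, with 0.677 to 0.931 FPKM in sgCtrl and 0.0706 to 0.134 in sg*NF2*-1. *PECAM1* also fell, with 0.667 to 0.872 FPKM in sgCtrl and 0.131 to 0.204 in sg*NF2*-1. The part of these markers in the other results was not tested.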

How the data were processed

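RNA was measured in 3 sgCtrl and 3 sg*NF2*-1 libraries of H2452 cells. The deposited tables hold, for each gene, the raw number of reads (counts) and an FPKM value. Judged from the values alone, FPKM corresponded to the count divided by exon length and by 1 depth per library. The submitters' processing notes list hg38, HISAT2, StringTie 1.3.3b and featureCounts 1.5.0-p3 without roles. Strand use in counting is not given in the sources used here. Reads that fit several genes may have been dropped or split.

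Genes with few counts were removed by filterByExpr (at least 10 counts, total of at least 15), and the rest were TMM-scaled and fitted with edgeR 4.0.16 in R 4.3.3 (quasi-likelihood test, Benjamini-Hochberg over 14179 genes, called at an adjusted p under 0.05). FPKM values with a mean of at least 0.5 were tested with limma 3.58.1 on log2(FPKM + 1), which understates the change of low genes. A count of 0 was taken to allow 3 counts. For single genes the mean CPM was also tested by exact permutation (two-sided), which with 3 libraries a group gives no p below 0.10. The procedures were tested on simulated counts. All 58735 identifiers were in GENCODE release 29.

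The 8 genes and all lists were chosen with earlier results of these data known. Named were all members, the nearest expressed 9p21 neighbours and the protein-coding genes between them, and the 3 genes most like each expressed member. From each partner list, up to 3 called genes with the largest fold changes and a fixed set of genes of the CDK, MDM2 and PRMT5 pathways were named, of which 1 result is not reported here, and others are said to be named after their values were seen. Alternatives were DESeq2 1.42.0, other scalings and filters, a replicate block, the study's thresholds on edgeR values, and leaving out each library. For FPKM they included a pseudocount of 0.1 and no filter.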

Additional observations from a re-analysis of the deposited data

How the results depend on the processing

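No alternative called any of the 4 chromatin genes, by counts or by FPKM. Over 12 alternatives on the counts, the log2 fold change ranged from -0.28 to -0.08 for *SETD2*, from -0.19 to -0.06 for *PBRM1* and from 0.03 to 0.17 for *SETDB1*. The sign of *BAP1* turned with library totals as the only scaling (-0.0088), without sgCtrl replicate 1 (-0.035) and without sg*NF2*-1 replicate 3 (-0.027), in a range of -0.035 to 0.078 when single libraries were left out. On the FPKM scale it turned without the same libraries (-0.046 and -0.038, range -0.046 to 0.058). Near 9p21, *KLHL9* turned without sgCtrl replicate 3 (0.039, range -0.12 to 0.039), *TUSC1* without sgCtrl replicate 3 (-0.0021) and without sg*NF2*-1 replicate 3 (-0.032, range -0.032 to 0.15), and the sparsely counted *ADAMTSL1* without sgCtrl replicate 2 (0.10, range -1.49 to 0.10). The causes were not tested.

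The partner genes called numbered 21 higher and 22 lower. Under the study's thresholds applied to edgeR values (unadjusted p under 0.05, log2 fold change past 0.5) there were 6 higher and 6 lower. The fold limit leaves out smaller changes. Leaving out single libraries gave 14 to 20 higher and 15 to 20 lower, and the other alternatives 17 to 23 and 19 to 22.

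Deviations of same-numbered libraries correlated at r = -0.03, 0.06 and 0.05, and those of differently numbered ones at -0.11 to 0.06. Over all 14179 tested genes, the fit with a replicate block called 5199, against 4866 without it. Whether replicate numbers pair the samples was not settled by these values. With the replicate block, *SETD2* had a log2 fold change of -0.20, *PBRM1* -0.14, *SETDB1* 0.09 and *BAP1* 0.02, and 0 of the 4 were called. The block gave 23 partner genes higher and 22 lower.

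The depth limits the 9p21 genes to the levels given, and 3 libraries a group limit the chromatin genes to the intervals given.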
